A study of Mus musculus with 69 samples.

Results

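The citric acid cycle enzymes described here are 9 genes: Cs, Idh2, Idh3a, Idh3b, Ogdh, Dlst, Sucla2, Fh1 and Mdh2. They were chosen by name, and their probe sets were taken by gene symbol from the array annotation. The 9 genes are among 12432 genes with a testable probe set naming a single gene, and 21 of the 45141 probe sets on the array name 1 of them alone. Of these 21 probe sets, 19 passed the filter on dim signal (the other two, 1 of Dlst and 1 of Sucla2, did not), and each gene is represented by its brightest one. Another 2 probe sets name Idh2 together with Zfp710 and were not used for Idh2.

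The study measured heart RNA of adult male CD-1 mice, an outbred stock, weighing 20 to 35 g and exposed while awake to cyanide by either of 2 routes. KCN at 8.0 mg/kg was injected under the skin, with an equal volume of saline as control, and the injected mice gave hearts at 1, 2, 4, 8 and 24 h. HCN gas at 327 ppm was breathed through the nose only, with air as control, for hearts collected at 1, 2, 4 and 24 h. Groups held 4 arrays each, but KCN 4 h, Saline 2 h and Saline 4 h had 3, giving 37 injection and 32 inhalation arrays, 69 in 18 groups. The labels call each array a biological replicate but do not name the animals, so the spread between arrays is taken as given.

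Cyanide binds cytochrome c oxidase, the last complex of the mitochondrial respiratory chain, and stops the transfer of electrons to oxygen. The citric acid cycle runs in the mitochondrial matrix, oxidises the acetyl group of acetyl-CoA and hands the electrons to that chain as NADH and reduced flavin. Heart muscle is packed with mitochondria and draws most of its ATP from this route, so the transcripts of these enzymes are abundant in cardiomyocytes.

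Values are deposited log2 signals, and 1 log2 unit is a doubling of signal. Each cyanide group was compared with the control of its own route and time in 1 limma fit over all arrays, with Benjamini-Hochberg adjustment over the 26755 probe sets tested. A gene is said to have risen or fallen only where the adjusted p was under 0.05, two-sided. Errors of changes are standard errors, and levels were compared neither between probe sets nor between routes.

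All 69 arrays correlated with each other at 0.968 to 0.995 over all probe sets, and no 2 were identical. Of 6 cardiomyocyte markers, 5 had a probe set, and these lay between 10.42 (Ryr2) and 13.72 (Myl2), which bears out the tissue label. Other tissue was present in some samples: the mean of 4 lung epithelium markers ranged from 2.91 to 2.99 in Saline 1 h but from 8.94 to 11.21 in KCN 1 h, and the mean of 4 thymocyte markers reached 8.48 in 1 Air 2 h array. The mean of 3 adipocyte and brown fat markers (Adipoq, Ucp1, Cidea) was higher with KCN than with saline at each of the 5 times, by 1.58 to 2.28, with 0 of 3 called at any time by limma and 1 to 3 at an unadjusted p under 0.05. The 5 skeletal muscle markers averaged 3.82 or less on each array, near the filter threshold of 3.23. In such bulk tissue, fewer cells of a type and less RNA per cell cannot be told apart.

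A pair of measures of RNA integrity was taken from the control probe sets. The log2 signal of the 3′ actin control minus that of the 5′ one, here called the actin ratio, rises as RNA is shortened. It was 0.48 ± 0.0799 (SD, n = 4) in KCN 1 h and 0.841 ± 0.172 (SD, n = 4) in Saline 1 h. At 24 h the actin ratio was 0.473 ± 0.131 with KCN and 0.878 ± 0.091 with saline, but 0.979 ± 0.255 with HCN and 0.386 ± 0.0447 with air (SD, n = 4 each). At 2 h it was 1.22 ± 0.611 with HCN and 0.452 ± 0.143 with air (SD, n = 4 each). By the exact permutation test, two-sided, the differences at KCN 1 h, KCN 24 h and HCN 24 h each had p = 0.0286, the smallest that 4 against 4 arrays allow (0.0858 adjusted over 9 comparisons), and the difference at HCN 2 h had p = 0.0571 (0.128 adjusted). None of these differences passed after adjustment. With a smallest p of 0.0286, a difference could pass over 9 comparisons only if most of them reached that p. The adjusted test therefore cannot show that RNA integrity was equal. The same ratio for Gapdh was 0.379 ± 0.341 with HCN and -0.153 ± 0.0209 with air at 2 h, and 0.194 ± 0.0844 and -0.0291 ± 0.0473 at 24 h (SD, n = 4 each; exact permutation p = 0.0286 for both, 0.129 adjusted over 9 comparisons). For KCN against saline the Gapdh ratio differed by 0.0313 at 1 h and by -0.0367 at 24 h (exact permutation p = 0.429 and 0.4), so the lower actin ratio of KCN at these times was not matched by Gapdh. Results at these times are given with the actin ratio beside them.

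The members called lower at KCN 1 h are shown by the DNA before their transcription start. Whether a factor bound there had a part in the fall was not tested. RefSeq (mouse build GRCm38.p6) lists a start for 8 of the 9 genes, and the 250 bases before it were searched on both strands for 4 motifs. Capitals mark the GC box bound by Sp1 family factors, GGGCGG, or CCGCCC where it lies on the opposite strand. Cs is at chr10:128337477-128337726 on the plus strand, Idh2 at chr7:80115351-80115600 on the minus strand, and Mdh2 at chr5:135778399-135778648 on the plus strand. Sucla2, shown because it moved in opposite directions by route at 24 h, is at chr14:73552536-73552785 on the plus strand.
Cs: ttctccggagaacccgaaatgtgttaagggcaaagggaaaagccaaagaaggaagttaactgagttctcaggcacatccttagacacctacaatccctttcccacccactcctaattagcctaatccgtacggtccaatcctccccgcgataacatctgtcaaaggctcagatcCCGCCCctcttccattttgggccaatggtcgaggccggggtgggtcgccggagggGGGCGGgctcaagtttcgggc
Idh2: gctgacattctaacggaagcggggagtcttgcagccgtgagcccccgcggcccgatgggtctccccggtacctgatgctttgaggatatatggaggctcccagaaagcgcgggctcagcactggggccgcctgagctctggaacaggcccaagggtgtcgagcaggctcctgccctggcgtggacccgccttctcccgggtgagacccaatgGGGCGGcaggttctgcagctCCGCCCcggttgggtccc
Mdh2: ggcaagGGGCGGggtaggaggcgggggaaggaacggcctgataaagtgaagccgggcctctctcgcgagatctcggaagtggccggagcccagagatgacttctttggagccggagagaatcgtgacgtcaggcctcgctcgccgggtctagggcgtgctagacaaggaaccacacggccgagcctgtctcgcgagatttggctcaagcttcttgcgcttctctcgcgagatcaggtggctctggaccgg
Sucla2: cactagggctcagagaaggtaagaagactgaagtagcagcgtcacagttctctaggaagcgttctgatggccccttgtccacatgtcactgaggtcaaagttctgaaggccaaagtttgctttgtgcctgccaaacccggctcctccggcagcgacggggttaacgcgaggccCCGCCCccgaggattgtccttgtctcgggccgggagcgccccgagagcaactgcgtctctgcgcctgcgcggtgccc
The Cs sequence held 2 GC boxes, starting 76 and 21 bases before the start, and Idh2 also held 2, at 38 and 18 bases. Mdh2 held 1 at 244 bases and Sucla2 1 at 77 bases. A GC box was present before 7 of the 8 genes (Idh3b was the exception; Ogdh has 6 listed starts, and 1 or more counted), and 32.7% of 32851 promoters of the same length held one. The element of the estrogen-related receptors (TCAAGGTCA) was found before 0 of the 8, as before 0.387% of all promoters. The NRF1 element and the Ets element bound by GABP (CCGGAAGT) were likewise found before 0 of the 8, and before 0.782% and 2.88% of all promoters. The matches do not overlap one another, and a match or its absence describes the letters of the window only.

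**Figure D1:**
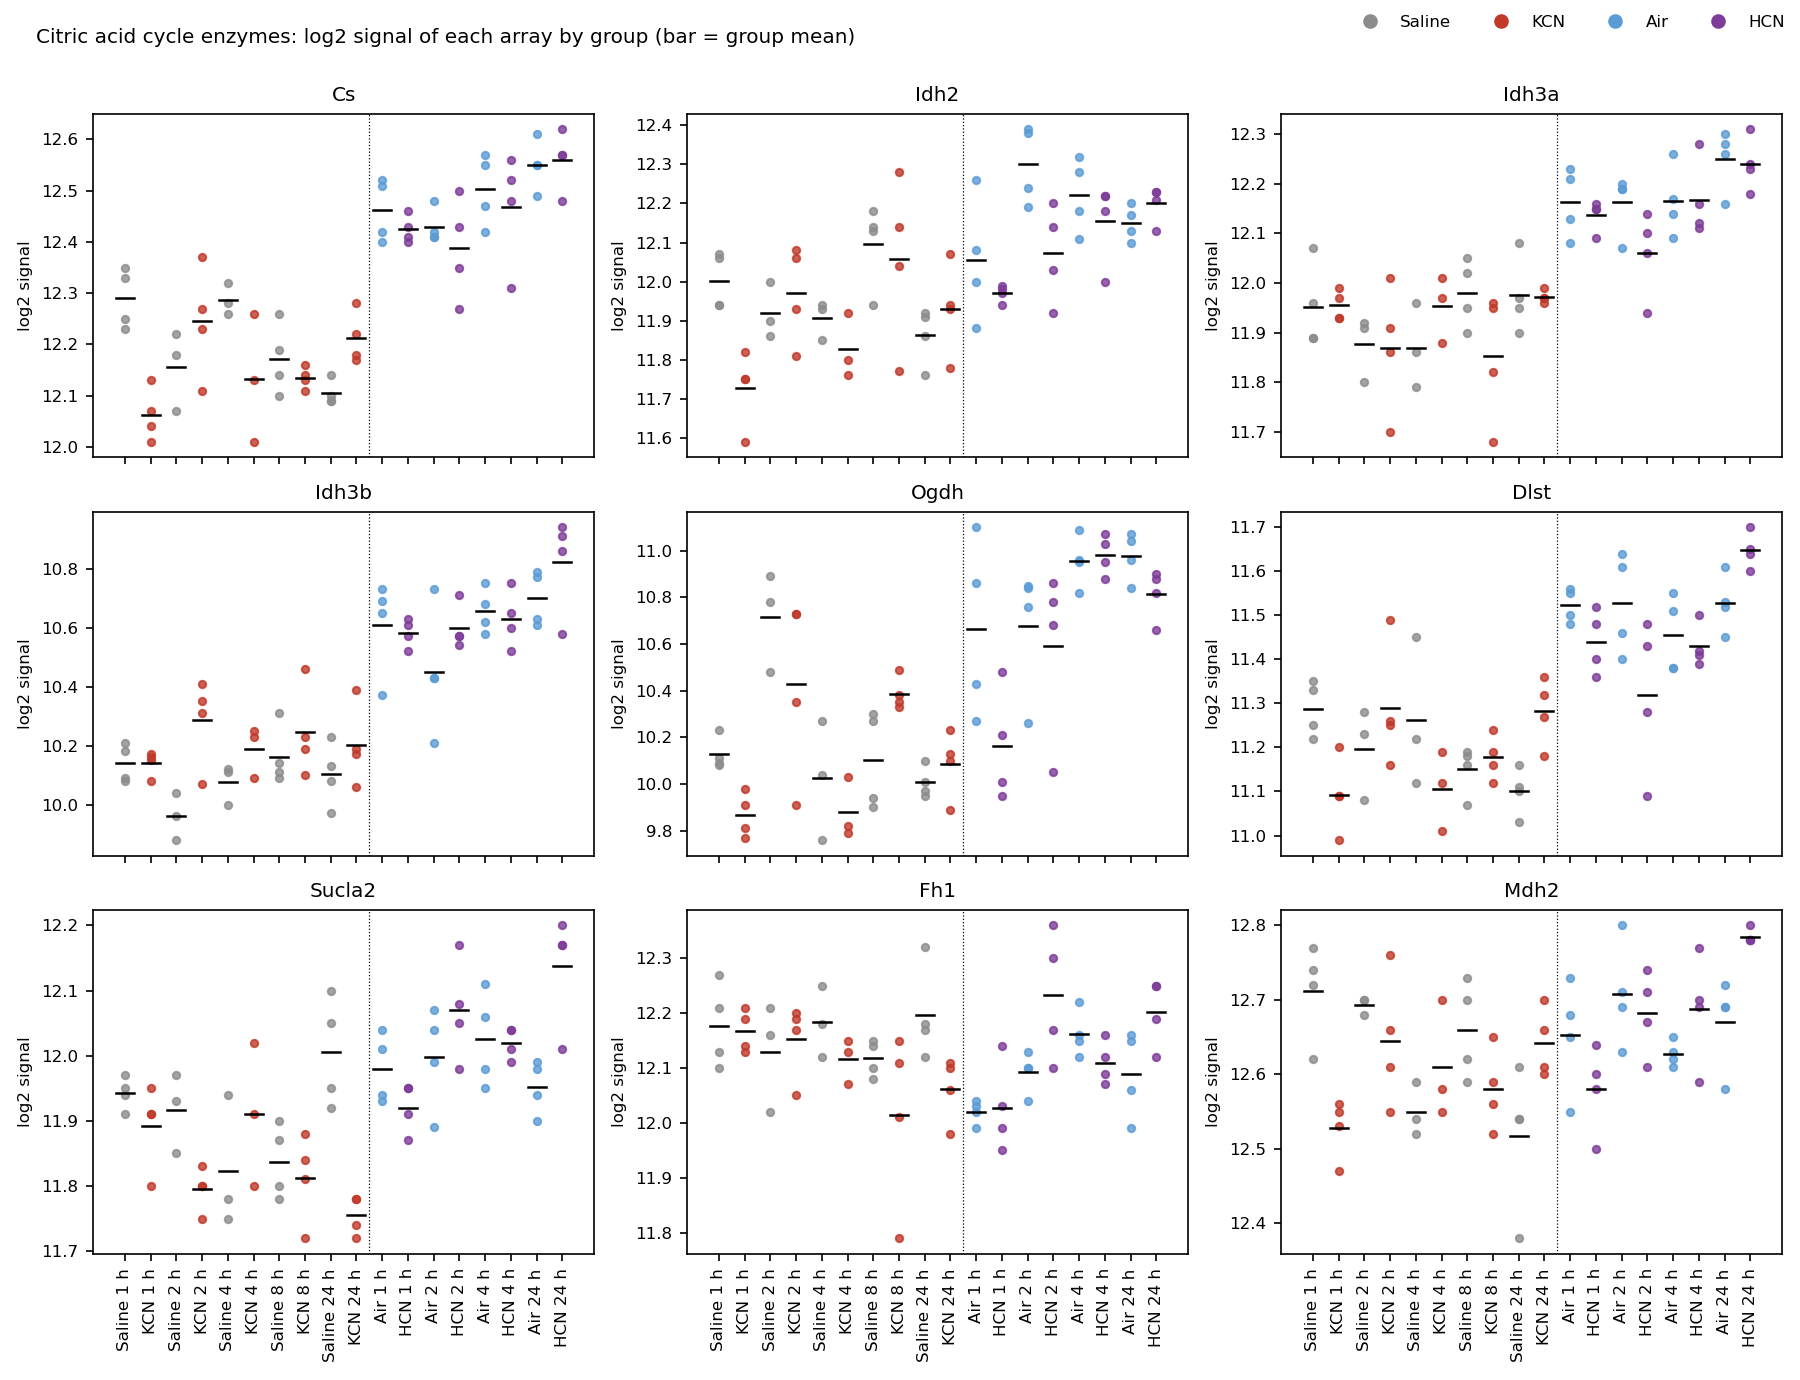
Log2 signal of the brightest probe set of each of the 9 enzymes, with 1 point per array, coloured by exposure, and a bar at each group mean; injection groups stand left of the dotted line and inhalation groups right of it, and the vertical scale differs between panels. Within a route the group means of 8 enzymes lie within 0.38 of one another, while Ogdh spans 0.85 among injection groups and 0.81 among inhalation groups.

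Injected KCN lowered 3 enzymes at 1 h: Cs, Idh2 and Mdh2. Cs encodes citrate synthase, which joins acetyl-CoA to oxaloacetate and opens the cycle. Its log2 signal was 12.25, 12.35, 12.23 and 12.33 in the 4 Saline 1 h arrays and 12.07, 12.04, 12.01 and 12.13 in the 4 KCN 1 h arrays. Each KCN array lay below each saline array, and the change of -0.23 ± 0.05 had an adjusted p of 0.00337 in limma (0.853 of the saline signal). The call held without any 1 of the 8 arrays, with adjusted p up to 0.0243.

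Idh2 encodes the mitochondrial NADP-dependent isocitrate dehydrogenase, which supplies NADPH to the matrix beside the NAD-dependent enzyme of the cycle proper. It read 11.94, 12.07, 11.94 and 12.06 with saline and 11.75, 11.59, 11.82 and 11.75 with KCN at 1 h. These groups too did not overlap, and Idh2 fell by 0.28 ± 0.07 on the log2 scale (limma adjusted p = 0.0205). The call was lost without Saline 1 h replicate 2 (adjusted p = 0.0859), Saline 1 h replicate 4 (0.0659) or KCN 1 h replicate 2 (0.119), with changes between -0.31 and -0.23 over the 8 left-out arrays.

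Mdh2 encodes mitochondrial malate dehydrogenase, which closes the cycle by returning oxaloacetate. Its signal was 12.74, 12.77, 12.62 and 12.72 with saline and 12.56, 12.53, 12.55 and 12.47 with KCN. The groups did not overlap and Mdh2 fell by 0.18 ± 0.05 (limma adjusted p = 0.01; 0.0625 without Saline 1 h replicate 2). Its second probe set read 12.78, 12.68, 12.85 and 12.70 with saline and 12.52, 12.48, 12.61 and 12.40 with KCN, a change of -0.25 ± 0.05 (adjusted p = 0.00216), so both probe sets of Mdh2 fell.

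These 3 were the calls among the 9 enzymes at KCN 1 h, all lower, where 2.53% of all probe sets tested were called lower. The median change of the 9 was -0.18, and that of all probe sets tested was -0.01. Groups did not overlap for 5 of the 9, against 14% of all probe sets: Cs, Idh2, Mdh2, Ogdh and Dlst. Ogdh and Dlst encode the first subunit and the transsuccinylase core of the alpha-ketoglutarate dehydrogenase complex, and their changes of -0.26 ± 0.15 and -0.19 ± 0.07 did not pass the test (limma adjusted p = 0.354 and 0.0868). Idh3a and Idh3b, the catalytic and a regulatory subunit of the NAD-dependent isocitrate dehydrogenase, both changed by 0.00, with 95% intervals of -0.11 to 0.11 and -0.17 to 0.17. The other two Idh3a probe sets were at -0.18 ± 0.09 and -0.21 ± 0.10, each with 3 of 4 KCN arrays below all saline arrays, and did not pass (adjusted p = 0.256 and 0.246). Sucla2 was at -0.05 ± 0.05 and Fh1, fumarase, at -0.01 ± 0.05.

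The actin ratio was lower in KCN 1 h than in Saline 1 h, as given above. With that ratio as a covariate, the brightest probe sets of Cs, Idh2 and Mdh2 changed by -0.25, -0.34 and -0.18. All were still called (limma adjusted p = 0.00254, 0.00409 and 0.0255), and Dlst was called as well (-0.25, adjusted p = 0.029). The second Mdh2 probe set was not examined with this covariate. It was called lower at KCN 1 h and 24 h, where the ratio differed by -0.361 and -0.405. At HCN 2 h it was called higher, where the ratio differed by 0.768. At KCN 8 h it was lower without a call, where the ratio differed by -0.0279. At HCN 24 h it read 12.65 to 12.84 with air and 12.61 to 12.85 with HCN, where the ratio differed by 0.593. At HCN 4 h it read 12.55 to 12.67 with air and 12.70 to 12.77 with HCN, where the ratio differed by 0.0106. The part of RNA integrity in its values was not tested. Of the 5 cardiomyocyte markers 0 were called in limma at KCN 1 h, and their mean was 12.57 to 12.69 with KCN and 12.69 to 12.72 with saline. The lung epithelium markers were called higher for 3 of 4 and the macrophage markers for 1 of 5. The mean of the adipocyte and brown fat markers was higher by 1.58, with none called. The part of such cells in the fall of the 3 enzymes was not tested. The other two probe sets of Cs changed by -0.13 ± 0.06 and -0.05 ± 0.10, neither of which passed the test in limma (adjusted p = 0.255 and 0.852), and the mean of the 3 probe sets gave -0.14 (adjusted p = 0.166), so the call of Cs rests on its brightest probe set. The second probe set of Idh2 had a mean signal of 3.17, under the filter threshold of 3.23, and says nothing of this fall.

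Inhaled HCN at 1 h changed the brightest probe sets by -0.04 ± 0.05 (Cs), -0.09 ± 0.07 (Idh2) and -0.07 ± 0.05 (Mdh2). None of these changes passed. The second Mdh2 probe set read 12.68, 12.51, 12.56 and 12.56 with air and 12.47, 12.48, 12.45 and 12.42 with HCN. For that probe set each HCN array lay below each air array. The difference between the routes at 1 h was tested directly. It was 0.19 for Cs (95% interval 0.05 to 0.34, limma adjusted p = 0.346), 0.19 for Idh2 (-0.02 to 0.40, adjusted p = 0.64) and 0.11 for Mdh2 (-0.02 to 0.24, adjusted p = 0.651), so a difference between routes was not established for these enzymes at 1 h. Over all 9 enzymes 0 were called for it at 1 h, with 1 (Cs) at an unadjusted p under 0.05 and 0.198% of all probe sets called.

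**Figure D2:**
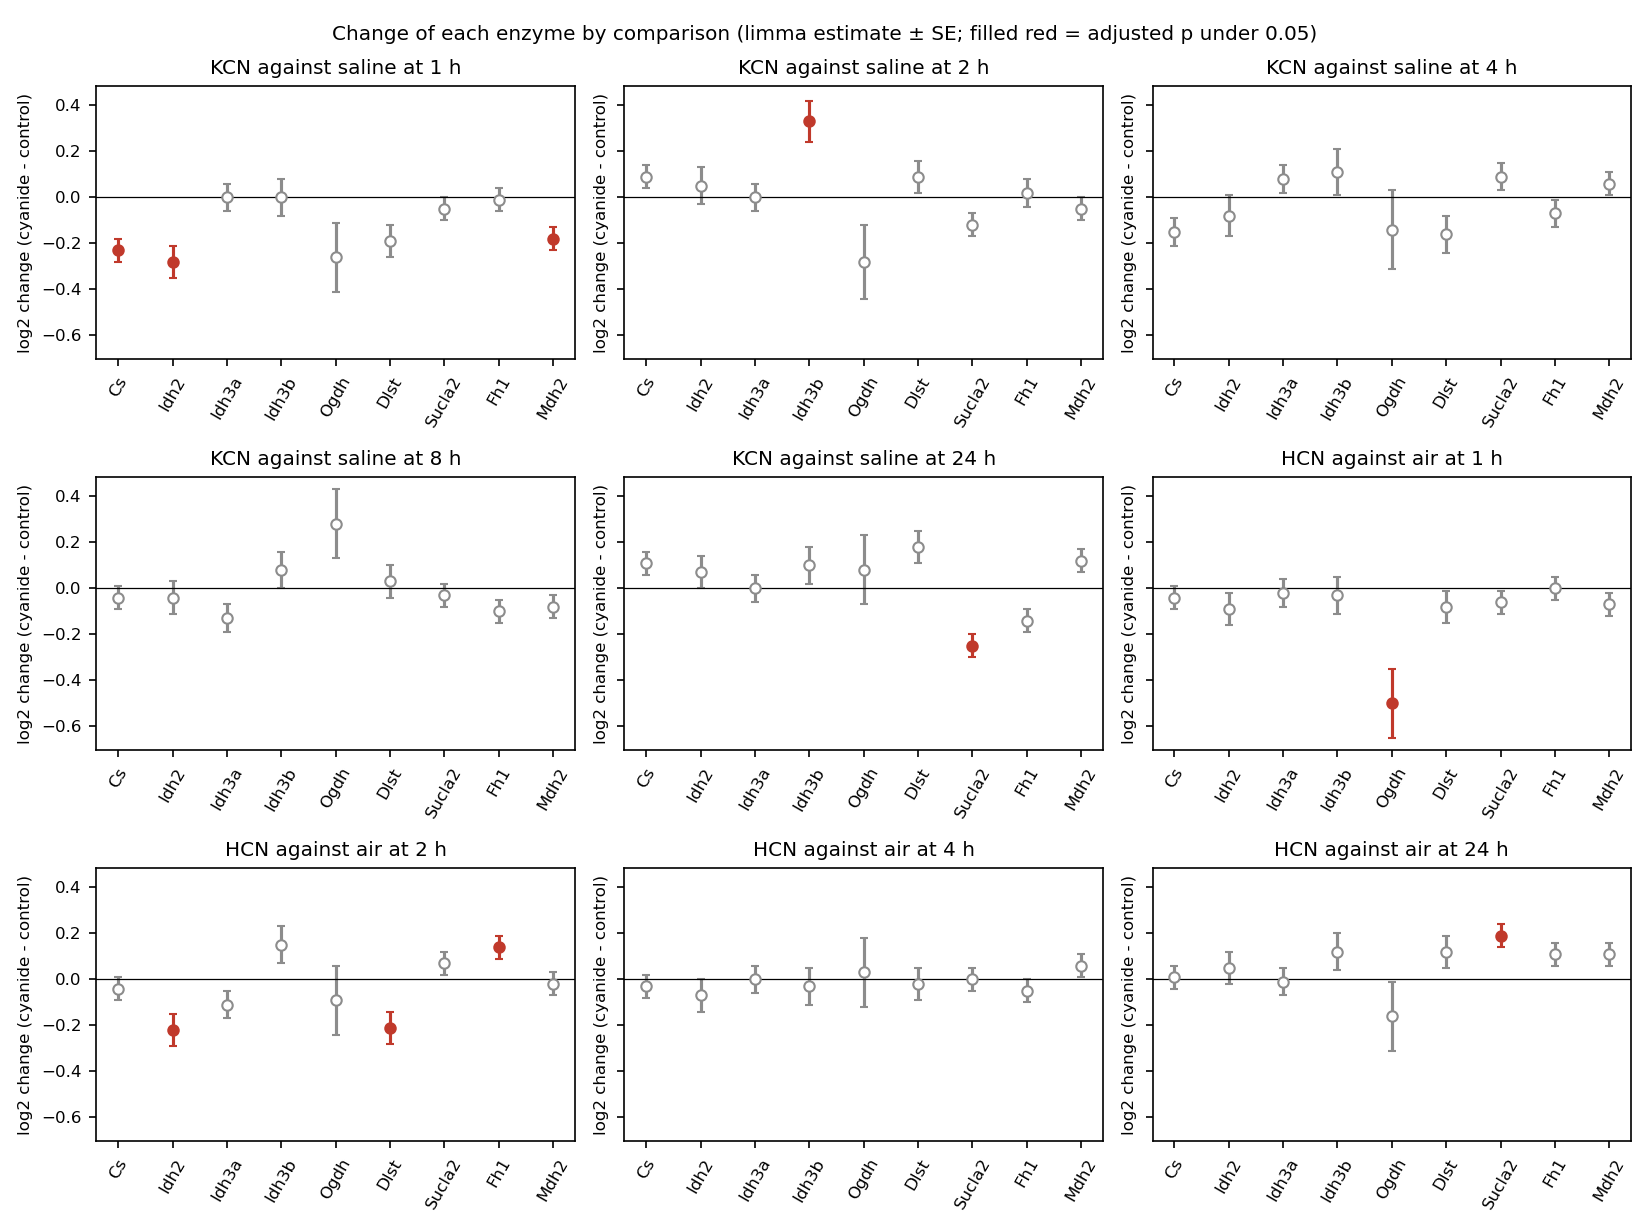
Log2 change of each enzyme, cyanide minus control, in the 9 comparisons; points are limma estimates with bars of 1 SE, and filled red points have an adjusted p under 0.05. The 3 filled points at KCN 1 h lie between -0.28 and -0.18, and Sucla2 is filled at 24 h in both routes, at -0.25 with KCN and 0.19 with HCN.

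At the later injection times the brightest probe sets of Cs, Idh2 and Mdh2 were not called. The second Mdh2 probe set was again lower at KCN 8 h, with separate groups (-0.16 ± 0.05, limma adjusted p = 0.172), and was called lower at KCN 24 h (-0.19 ± 0.05, adjusted p = 0.00863). At KCN 2 h Idh3b alone was called, higher, where 3.3% of probe sets were called higher. Idh3b read 9.88, 9.96 and 10.04 in the 3 saline arrays and 10.35, 10.41, 10.07 and 10.31 in the 4 KCN arrays. The groups did not overlap, by a narrow margin for KCN 2 h replicate 3, and the change was 0.33 ± 0.09 (limma adjusted p = 0.0181). The call was lost without any 1 of 5 of the 7 arrays: Saline 2 h replicate 1 (adjusted p = 0.0977) or 2 (0.0525), or KCN 2 h replicate 1 (0.0595), 2 (0.0603) or 4 (0.0541). Groups failed to overlap for 2 of the 9 enzymes, Idh3b and Sucla2, against 15.9% of probe sets. At this time 2 of 5 endothelium markers and 1 of 5 fibroblast markers were called lower (mean changes of the lists -0.41 and -0.33). The adipocyte and brown fat list changed by 2.28 and the lung epithelium list by 3.59, with no marker of either called. The part of these cells in the Idh3b value was not tested.

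Averaged over the 5 injection times, Idh3b was higher with KCN by 0.12 ± 0.04 (limma adjusted p = 0.0342) and Sucla2 lower by 0.07, at -0.07 ± 0.02 (adjusted p = 0.0305; 0.157 with the actin ratio as a covariate). For that average, 5.07% of probe sets were called higher and 4.45% lower, 9.52% in all. The Idh3b average includes its change of 0.33 at 2 h. At 1, 4, 8 and 24 h Idh3b changed by 0, 0.11, 0.08 and 0.10, none of them called. Saline 2 h, with 3 arrays, had the lowest Idh3b mean of the injection groups (9.96). Averaged over the 4 inhalation times 0 of the 9 enzymes were called, with 3 at an unadjusted p under 0.05, where 21.5% of probe sets were called. Other probe sets of the members were called for these averages: the second of Mdh2 at -0.12 ± 0.02 with KCN (adjusted p = 0.000766) and 0.07 ± 0.03 with HCN (0.0308), and with HCN the other two of Cs at 0.09 ± 0.03 (0.0362) and -0.27 ± 0.05 (5.32e-05). The second probe set of Idh3b gave an average of 0.37 ± 0.10 and was also called (adjusted p = 0.0165), though at 2 h alone it was not (0.59 ± 0.24, adjusted p = 0.132). Over the 69 arrays, each centred on its route's mean, the 2 Idh3b probe sets correlated at 0.81, while the other second and later probe sets of the members correlated with their brightest one at 0.355 or less.

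At KCN 4 h the 9 changes lay between -0.16 (Dlst) and 0.11 (Idh3b), and 0 were called by limma, with 2 at an unadjusted p under 0.05 (Cs at -0.15 and Dlst), where 2.26% of probe sets were called. At KCN 8 h they lay between -0.13 (Idh3a) and 0.28 (Ogdh), again with 0 called and 1 (Idh3a) at an unadjusted p under 0.05, where 0.336% of probe sets were called. Ogdh read 9.94, 9.90, 10.27 and 10.30 with saline and 10.38, 10.35, 10.49 and 10.33 with KCN at 8 h, the 1 enzyme of 9 whose groups were separate, against 4.16% of probe sets. At HCN 4 h the range was -0.07 to 0.06, with 0 called and 0 at an unadjusted p under 0.05, where 7.35% were called. Groups were separate for 0 of the 9 at KCN 4 h and at HCN 4 h, against 18.3% and 13.3% of probe sets. The route difference called 0 of the 9 at 2 h, with 3 at an unadjusted p under 0.05 (5.74% of probe sets called), and 0 at 4 h, with 0 at an unadjusted p under 0.05 (1.87% called). The 95% interval at HCN 4 h was -0.13 to 0.07 for Cs and -0.26 to 0.32 for Ogdh, so the first interval leaves out a fall as large as that of Cs at KCN 1 h, and the second is too wide to do so.

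Sucla2 moved in opposite directions by route at 24 h. It encodes the ATP-forming beta subunit of succinyl-CoA ligase, the step of the cycle that makes a nucleoside triphosphate directly. Its signal was 12.10, 12.05, 11.92 and 11.95 in Saline 24 h and 11.72, 11.78, 11.78 and 11.74 in KCN 24 h. The KCN arrays were all below the saline arrays, and Sucla2 fell by 0.25 ± 0.05 (limma adjusted p = 0.000314; 0.842 of the saline signal). It was the 1 enzyme of 9 called at KCN 24 h, where 5.14% of probe sets were called lower, and it remained called without any 1 of the 8 arrays (adjusted p up to 0.00554).

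With inhaled HCN the same probe set read 12.20, 12.17, 12.17 and 12.01 at 24 h and 11.99, 11.94, 11.90 and 11.98 with air. The HCN arrays were all above the air arrays, though HCN 24 h replicate 4 was above the highest air array by little. The rise was 0.19 ± 0.05 (limma adjusted p = 0.00493), the 1 call among the 9 at HCN 24 h, where 5.08% of probe sets were called higher. It held without any 1 of the 8 arrays (adjusted p up to 0.0311).

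The difference between the routes in the change of Sucla2 at 24 h was 0.43 ± 0.07 (95% interval 0.30 to 0.57, limma adjusted p = 4.88e-06), where 8.11% of probe sets were called for a higher change with HCN. Fh1, fumarase, which hydrates fumarate to malate, differed in the same sense by 0.25 ± 0.08 (adjusted p = 0.0167), from changes of -0.14 ± 0.05 with KCN and 0.11 ± 0.05 with HCN that did not pass on their own (adjusted p = 0.0927 and 0.168). Fh1 read 12.32, 12.18, 12.17 and 12.12 with saline, 11.98, 12.06, 12.11 and 12.10 with KCN, 12.16, 11.99, 12.06 and 12.15 with air, and 12.25, 12.25, 12.19 and 12.12 with HCN. Its KCN and saline arrays did not overlap, and its HCN and air arrays did. The other 7 enzymes did not pass this test at 24 h, with differences between -0.24 and 0.02.

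**Figure D3:**
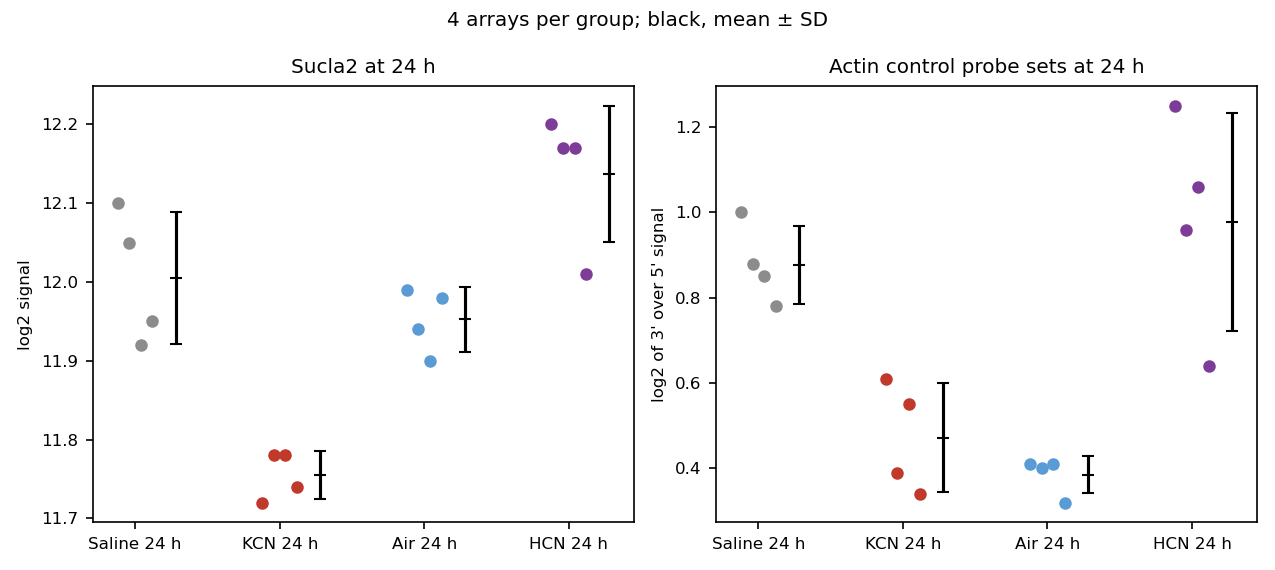
Left, log2 signal of Sucla2 at 24 h in the 4 arrays of each group; right, the log2 ratio of 3′ to 5′ actin signal in the same arrays; black marks give mean ± SD. Sucla2 is lowest in KCN 24 h (11.72 to 11.78), and both panels order the groups of a pair the same way, saline above KCN and HCN above air.

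The actin ratio moved the same way as Sucla2 in both routes at 24 h. Within HCN 24 h, replicate 4 had both the lowest Sucla2 signal (12.01) and the lowest ratio (0.64, against 0.96 to 1.25 in the others). In KCN 24 h, Saline 24 h and Air 24 h the array of lowest Sucla2 signal was not that of lowest ratio. Replicate 1 of KCN 24 h had the lowest Sucla2 signal (11.72) and the highest ratio (0.61) of its group. Replicate 1 of Saline 24 h had the highest of both. With the ratio as a covariate the KCN change was -0.22 (limma adjusted p = 0.00348) and the route difference 0.36 (adjusted p = 0.00763), both still called. The HCN change became 0.14 (adjusted p = 0.181) and the Fh1 route difference 0.20 (adjusted p = 0.249), neither called. At KCN 24 h 3 of 5 macrophage and 2 of 5 endothelium markers were called higher and 1 of 5 cardiomyocyte markers lower. The mean changes of these lists were 0.47, 0.28 and -0.03. The adipocyte and brown fat list changed more, by 1.94, and the lung epithelium list by 3.59, with no marker of either called. At HCN 24 h 1 marker each of the macrophage, fibroblast and endothelium lists was called lower (of 5 each), and the part of these cell types in these values was not tested. Sucla2 and Fh1 each had 1 testable probe set, so no second one could be set beside these values.

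At the same time point Dlst, Mdh2 and Cs were higher with KCN by 0.18 ± 0.07, 0.12 ± 0.05 and 0.11 ± 0.05, without passing the test (limma adjusted p = 0.0576, 0.065 and 0.166). The second Cs probe set was lower at that time by 0.15, at -0.15 ± 0.06 with all KCN arrays below all saline arrays (adjusted p = 0.103), so the direction for Cs differed between its probe sets. So did that for Mdh2, whose second probe set was called lower at that time, as given above. That probe set read 12.72 to 12.86 with saline and 12.53 to 12.61 with KCN. Groups did not overlap at KCN 24 h for 4 of the 9 enzymes (Sucla2, Fh1, Cs and Dlst), against 22.6% of probe sets. Dlst was called higher under 4 other settings of the fit or choice of probe set, with values from 0.18 to 0.51. The value of 0.51 came from its second probe set, of mean signal 4.84 against 11.33 for the brightest. Over the 69 arrays, centred on route, these probe sets correlated at 0.0483. At HCN 24 h groups did not overlap for 2 of the 9 (Sucla2 and Mdh2, the latter at 0.11 ± 0.05), against 20.1%.

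Ogdh varied most among the 9 enzymes. It spanned 0.85 between the lowest and the highest group mean of the injection route (KCN 1 h at 9.87, Saline 2 h at 10.72) and 0.81 in the inhalation route (HCN 1 h at 10.17, HCN 4 h at 10.98), while the other 8 spanned 0.13 to 0.38. At HCN 1 h it read 10.48, 9.95, 10.21 and 10.01, and at Air 1 h 10.43, 10.27, 10.86 and 11.10. The groups overlapped, and the change of -0.50 ± 0.15 passed narrowly (limma adjusted p = 0.0471), as 1 of 9 enzymes called lower where 1.3% of probe sets were. It no longer passed without Air 1 h replicate 3 (adjusted p = 0.168) or 4 (0.282) or HCN 1 h replicate 2 (0.155), 3 (0.0777) or 4 (0.168). By the brightest probe sets, groups were not separate for any of the 9 enzymes at HCN 1 h, against 9.18% of probe sets.

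Part of this variation was present without cyanide. Across the 5 saline times, limma's F test called 4 of the 9 enzymes, Cs, Ogdh, Sucla2 and Mdh2 (adjusted p = 0.00792, 0.0018, 0.013 and 0.00141), against 38.4% of probe sets. Saline 2 h had the highest Ogdh of these groups (10.89, 10.48 and 10.78), above the 15 other saline arrays, which lay at 9.76 to 10.30. Across the 4 air times 0 of the 9 were called, with 2 (Idh2 and Idh3b) at an unadjusted p under 0.05, against 16.8% of probe sets.

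HCN at 2 h gave the most calls among the inhalation comparisons, but on arrays of unequal RNA integrity. Idh2 was lower by 0.22, at -0.22 ± 0.07, Dlst at -0.21 ± 0.07 and Fh1 higher by 0.14 ± 0.05 (limma adjusted p = 0.0209, 0.0155 and 0.0491), where 16.5% of probe sets were called lower and 8.8% higher. The share of enzymes called, 3 of 9, stands near the 25.3% of all probe sets called in this comparison. For 0 of the 9 were the groups separate, against 18.1% of probe sets.

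Dlst read 11.46, 11.64, 11.61 and 11.40 in Air 2 h and 11.28, 11.09, 11.48 and 11.43 in HCN 2 h. Idh2 read 12.39, 12.24, 12.38 and 12.19 with air and 12.03, 11.92, 12.20 and 12.14 with HCN. Fh1 read 12.10, 12.13, 12.10 and 12.04 with air and 12.17, 12.36, 12.10 and 12.30 with HCN. For Dlst and Idh2, HCN 2 h replicates 1 and 2 were the lowest, and these 2 arrays had actin ratios of 1.49 and 1.95, against 0.79 and 0.64 in replicates 3 and 4. With the ratio as a covariate the changes were -0.09 for Dlst, -0.08 for Idh2 and 0.11 for Fh1, and without those 2 arrays they were -0.07, -0.13 and 0.11, none of them called either way (adjusted p from 0.291 to 0.6).

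These 3 calls also depended on single arrays. That of Fh1 was lost without any 1 of the 4 Air 2 h arrays or HCN 2 h replicates 2 or 4, with adjusted p up to 0.233. That of Idh2 was lost without Air 2 h replicates 1 or 3 or HCN 2 h replicates 1 or 2 (up to 0.116), and that of Dlst without Air 2 h replicates 2 or 3 or HCN 2 h replicate 2 (up to 0.163). The 3 neutrophil markers were called higher and 3 of 5 endothelium markers lower in the same comparison. The cardiomyocyte, macrophage and fibroblast lists each had 1 marker of 5 called higher and 1 lower. Of 3 tested skeletal muscle markers 1 was called higher. Of 4 thymocyte markers 1 was called lower, with a mean change of the list of -1.39 and a mean of 8.48 in 1 Air 2 h array. The part of these cells in these values was not tested.

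Probe sets of the same enzyme disagreed in several comparisons. The Cs probe set of lowest mean signal read 11.45, 11.31, 11.46 and 11.39 in Air 24 h and 10.85, 10.95, 10.85 and 11.10 in HCN 24 h, a change of -0.47 ± 0.10 (limma adjusted p = 0.000448). The second Cs probe set read 12.37, 12.26, 12.32 and 12.22 with air and 12.59, 12.52, 12.64 and 12.39 with HCN, a change of 0.24 ± 0.06 (adjusted p = 0.00331). The brightest changed by 0.01 ± 0.05, so 3 probe sets of 1 gene gave a fall, a rise and a value near 0 in the same hearts.

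At HCN 2 h the same Cs probe set again fell, by 0.47 ± 0.10 (limma adjusted p = 0.000318), with 10.60 and 10.15 in replicates 1 and 2 and 10.98 and 11.03 in replicates 3 and 4. The second Mdh2 probe set rose there by 0.27 ± 0.05 (adjusted p = 9.67e-05) and fell at KCN 24 h by 0.19 ± 0.05 (adjusted p = 0.00863), where the brightest gave -0.02 ± 0.05 and 0.12 ± 0.05. One Idh3a probe set fell at HCN 2 h by 0.45 ± 0.09 (adjusted p = 0.000113), where the brightest gave -0.11 ± 0.06. A Dlst probe set of mean signal 4.84, against 11.33 for the brightest, rose at KCN 24 h by 0.51 (adjusted p = 0.0258).

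**Figure D4:**
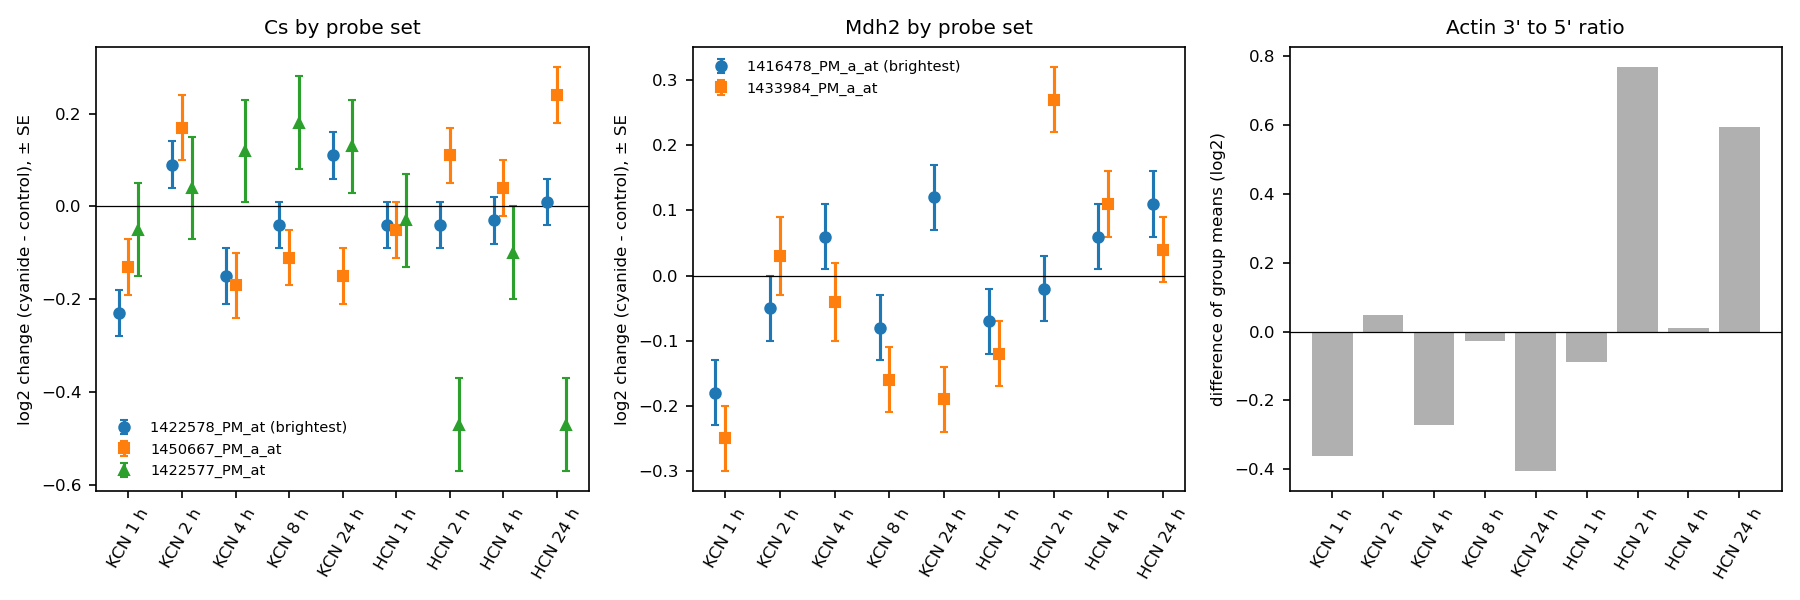
Left and middle, log2 change (cyanide minus control, bars of 1 SE) of each tested probe set of Cs and Mdh2 in the 9 comparisons; right, difference of group means of the log2 actin 3′ to 5′ ratio in the same comparisons. The Cs probe sets lie closest together at HCN 1 h (-0.05 to -0.03) and farthest apart at HCN 24 h (-0.47 to 0.24), where the ratio differed by 0.593.

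The 9 enzymes did not vary as 1 block. Over the 69 arrays, centred on route, the 36 pairs of enzymes had a median Pearson correlation of 0.147 (range -0.109 to 0.662), and of 0.0933 within groups; pairs share arrays, scaling and RNA integrity, and the values are descriptions. The genes outside the lists whose signal was most like the mean of the 9 enzymes, out of 12396 compared over the 69 arrays, were Nnt (0.701), Vdac1 (0.667), Dag1 (0.647), 2510039O18Rik (0.638) and Jph2 (0.612). Nnt encodes the NAD(P) transhydrogenase of the inner mitochondrial membrane, Vdac1 the main channel of the outer membrane, Dag1 dystroglycan and Jph2 the junctophilin of cardiac muscle.

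Another 7 genes of the cycle were tested, and the succinate dehydrogenase subunits gave most of the calls. Sdhc, a membrane anchor of that complex, read 11.54, 11.51, 11.42 and 11.45 in Saline 1 h and 11.07, 10.95, 11.15 and 11.19 in KCN 1 h. The groups did not overlap, and Sdhc fell by 0.39 ± 0.08 (limma adjusted p = 0.00173), the 1 call of 7 at that time, alongside Cs, Idh2 and Mdh2. The fall was called without any 1 of the 8 arrays (adjusted p up to 0.0191) and with the actin ratio as a covariate (-0.40, adjusted p = 0.00325).

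Sdhd, the other anchor, rose at HCN 2 h from 7.88, 7.89, 7.96 and 7.83 with air to 8.57, 8.65, 8.33 and 8.62 with HCN. This change of 0.65 ± 0.11 (limma adjusted p = 1.71e-05) was 0.63 with the actin ratio as a covariate (adjusted p = 0.00254) and 0.58 without HCN 2 h replicates 1 and 2 (adjusted p = 0.00356). Sdhd fell at KCN 24 h by 0.38 ± 0.11 (adjusted p = 0.0178), a call lost without Saline 24 h replicates 1 or 2 or KCN 24 h replicates 1 or 3 (adjusted p 0.0623 to 0.0864). Also at HCN 2 h, Sdha, Sdhb and Idh3g were called lower by the brightest probe set (-0.28, -0.10 and -0.20), which made 3 lower and 1 higher of 7, where 16.5% of all probe sets were called lower and 8.8% higher. Sdhb was also called lower at HCN 1 h (-0.13 ± 0.03, adjusted p = 0.0206; lost without any 1 of 4 of the 8 arrays, up to 0.0903). With the actin ratio as a covariate none of these 3 calls at HCN 2 h held (adjusted p from 0.0546 to 0.382), and the second probe sets of Sdha and Idh3g gave 0.06 and 0.26.

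Among the 12 tested genes of pyruvate entry the median change lay between -0.11 and 0.03 in the 9 comparisons, and 3 genes, Pdk4, Pdk2 and Pcx, had called changes of over 1 log2 unit. Pdk4 encodes a pyruvate dehydrogenase kinase, which switches off the conversion of pyruvate to acetyl-CoA and is induced in fasting. It read 9.77, 10.27, 10.71 and 10.93 in Air 4 h and 11.91, 12.16, 12.07 and 11.85 in HCN 4 h, with no overlap and a rise of 1.58 ± 0.33 (limma adjusted p = 0.00101). It had already risen at HCN 2 h by 1.22 ± 0.33 (adjusted p = 0.00465), from 10.25 to 10.91 with air to 11.13 to 12.32 with HCN, and it was called at both times without any 1 array (adjusted p up to 0.0294) and with the actin ratio as a covariate. After KCN it changed by -0.04 at 2 h and 0.70 at 4 h, and the difference between the routes did not pass (adjusted p = 0.116 and 0.397). In Air 1 h, without cyanide, Pdk4 read 10.75, 12.28, 11.92 and 11.12, so some air hearts reached the levels of HCN 4 h.

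At KCN 24 h, 2 of 12 tested genes of pyruvate entry were called, both higher, where 6.79% of all probe sets were called higher. Pcx encodes pyruvate carboxylase, which refills oxaloacetate, and read 4.2, 4.42, 4.98 and 4.56 with saline and 6.57, 6.70, 5.33 and 5.04 with KCN, a rise of 1.37 ± 0.30 (limma adjusted p = 0.00148). Pdk2, a second kinase of the pyruvate dehydrogenase complex, read 6.92, 6.71, 6.46 and 6.50 with saline and 6.27, 8.60, 8.36 and 8.54 with KCN, a rise of 1.30 ± 0.34 (adjusted p = 0.00713). The groups were separate for Pcx, while for Pdk2 replicate 1 of KCN lay below all saline arrays. In the saline arrays of 1 to 8 h Pdk2 lay at 6.57 to 9.36 and Pcx at 4.38 to 5.83. The Pdk2 signal at KCN 24 h was therefore not above that of saline hearts of other times. Both calls held without any 1 of the 8 arrays, and that of Pdk2 was lost in a fit of the 2 groups alone (adjusted p = 0.0578).

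Slc25a1 encodes the carrier that exports citrate from the matrix for fatty acid synthesis. At 24 h it read 5.33, 5.94, 6.43 and 5.82 with saline and 8.35, 8.53, 5.96 and 6 with KCN, a rise of 1.33 ± 0.39 (limma adjusted p = 0.0176) that rested on 2 of the 4 KCN arrays. With HCN it fell at 24 h by 1.36 ± 0.39 (adjusted p = 0.0115), and the difference between the routes was -2.69 ± 0.55 (adjusted p = 0.00027). The KCN call was lost without Saline 24 h replicate 1 (adjusted p = 0.0894), KCN 24 h replicate 1 (0.146) or KCN 24 h replicate 2 (0.155), and the HCN call without Air 24 h replicates 3 (0.09) or 4 (0.0935) or HCN 24 h replicate 4 (0.0615), or with the actin ratio as a covariate (0.146); in a fit of the 2 groups alone neither held (0.122 and 0.102).

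The KCN 24 h arrays with the highest Pcx and Slc25a1, replicates 1 and 2, also had the highest mean of the adipocyte and brown fat markers, 10.52 and 10.28, against 8.08 and 8.46 in replicates 3 and 4 and 5.49 to 8.64 with saline. The Air 24 h arrays with the highest Slc25a1, replicates 3 and 4, had marker means of 10.65 and 10.88, against 9.35 and 9.57 in replicates 1 and 2. The part of fat tissue in the values of Pcx and Slc25a1 was not tested.

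**Figure D5:**
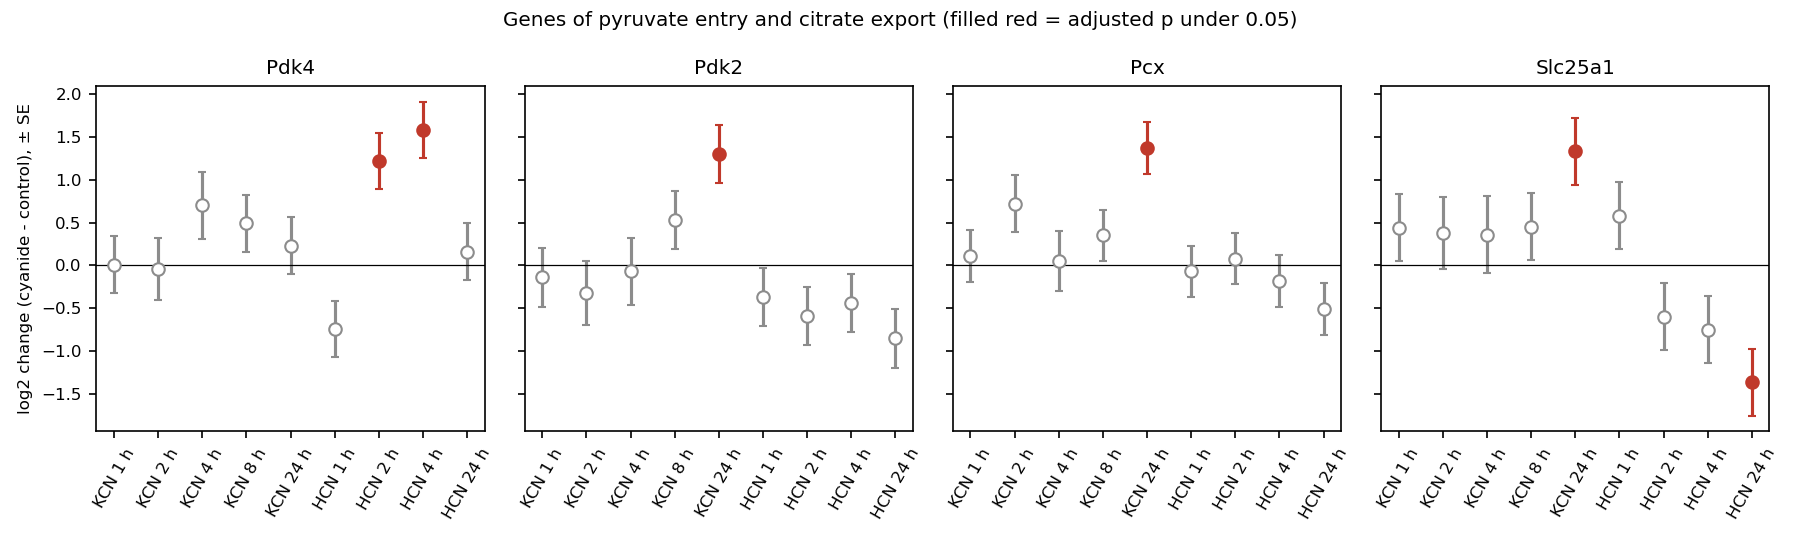
Log2 change (cyanide minus control, bars of 1 SE) of Pdk4, Pdk2, Pcx and Slc25a1 in the 9 comparisons; filled red points have a limma adjusted p under 0.05. Pdk4 is filled at HCN 2 h and 4 h (1.22 and 1.58), Pdk2 and Pcx at KCN 24 h (1.30 and 1.37), and Slc25a1 at 24 h in both routes with opposite sign (1.33 and -1.36).

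The remaining calls in these lists were smaller. Pdha1, the catalytic subunit of pyruvate dehydrogenase, was lower at KCN 8 h and HCN 2 h (-0.18 and -0.15), Pdk3 lower at HCN 2 h (-0.57), Pdp2, a phosphatase that reactivates the complex, higher at HCN 24 h (0.64), and Mdh1, the cytosolic malate dehydrogenase, lower at KCN 24 h (-0.12). In counts, pyruvate entry had 1 lower of 12 at KCN 8 h (0.198% of all probe sets were called lower) and 1 higher and 2 lower at HCN 2 h (8.8% and 16.5%), a share no larger than that of all probe sets. It had 1 higher at HCN 4 h (2.87% called higher) and 1 higher at HCN 24 h (5.08%). The cytosolic enzymes and carriers had 1 higher and 1 lower of 8 at KCN 24 h (6.79% and 5.14% of all probe sets) and 1 lower at HCN 24 h (9.25%). Each of these 5 smaller calls was lost under at least 1 other setting of the fit, and 4 of the 5 (all but that of Pdha1 at HCN 2 h) without at least 1 single array.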

How the data were processed

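Total RNA from whole hearts was hybridised to Affymetrix mouse arrays, 1 array per sample, and the deposited table holds log2 signal per probe set, from 1.83 to 13.94. The submitters' processing notes name MAS5, without a version, and how the authors scaled the log2 values within and between routes is not given in the sources used here. The 95th percentile of an array had a median of 9.24 for injection and 9.52 for inhalation, so levels were compared within a route only. Array precision is limited by the number of arrays.

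In R 4.3.3, limma 3.58.1 fitted 18 group means to all 69 arrays (51 residual degrees of freedom, intensity trend), with Benjamini-Hochberg adjustment per comparison over 26755 of 45141 probe sets (59.3%). Those tested had at least 1 group mean above 3.23, the median of all group means, and were not control probe sets. The code was tested on simulated data. Probe sets were named through the platform annotation where they carry 1 symbol (28898 do, 551 carry several and 15588 none), and 28689 of the 28898 matched a current gene ID.

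All 9 enzymes are named, each by its probe set of highest mean. Of the other lists (7 other cycle genes tested, 14 of pyruvate entry, 10 cytosolic enzymes and carriers) up to 4 called genes per comparison are named by lowest p. Genes of like pattern are the 5 outside these lists of highest correlation with the mean of the 9. Mpc2, Dld, Slc25a11 and Got1 are not analysed here. The members and lists were chosen with earlier results of these data known. Alternatives were quantile normalization, median centring, filters, no trend, fits per route or of 2 groups, other probe sets, an actin ratio covariate, a replicate block and leaving out each array.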

Additional observations from a re-analysis of the deposited data

Results flagged for a closer look

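Among 135 sets of 4 arrays (9 enzymes in 15 groups), 6 held 1 array far from the other three by Dixon's criterion, and chance gives about 1 in 20. Cs read 12.14 in Saline 24 h replicate 2, against 12.09 to 12.10 in the others of its group. Idh2 read 12 in HCN 4 h replicate 1, against 12.18 to 12.22. Idh3a read 12.07 in Air 2 h replicate 1, against 12.19 to 12.20, and 12.09 in HCN 1 h replicate 4, against 12.15 to 12.16. Idh3b read 10.08 in KCN 1 h replicate 1, against 10.15 to 10.17. Ogdh read 10.26 in Air 2 h replicate 4, against 10.76 to 10.85, the widest of these gaps.

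The effect of cyanide differed between the routes at 24 h for 2 enzymes by limma's test of the difference, Sucla2 by 0.43 (adjusted p = 4.88e-06) and Fh1 by 0.25 (adjusted p = 0.0167). With the actin ratio as a covariate that of Sucla2 was still called and that of Fh1 was not.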

How the results depend on the processing

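The number of the 9 enzymes called moved as follows. At KCN 1 h, 3 became 1 with the second probe sets. At KCN 2 h, 1 became 0 in a fit of the 2 groups alone, with the second probe sets and with the mean of the probe sets. At KCN 24 h, 1 became 2 with quantile normalization, a fit of the 2 groups or the mean of the probe sets, and 3 with a stricter filter or the second probe sets. At HCN 1 h, 1 became 0 with median centring, no filter, no trend, separate fits per route, a fit of the 2 groups, the second probe sets and their mean. At HCN 2 h, 3 became 0 in a fit of the 2 groups, with the actin covariate, and without HCN 2 h replicates 1 and 2, an alternative chosen after seeing the data. At HCN 24 h, 1 became 2 with quantile normalization or the second probe sets and 0 with the actin covariate. Leaving out 1 array gave 1 to 3 at KCN 1 h, 0 to 1 at KCN 2 h, 0 to 0 at KCN 4 h and 8 h, 1 to 2 at KCN 24 h, 0 to 1 at HCN 1 h, 0 to 3 at HCN 2 h, 0 to 0 at HCN 4 h and 1 to 1 at HCN 24 h. Signs reversed with the second probe set for Idh2 at HCN 2 h (0.0208, from a probe set of mean signal 3.17, under the filter threshold of 3.23, and so uninformative), Mdh2 at KCN 24 h (-0.19), Mdh2 at HCN 2 h (0.27; 0.12 for the mean of its probe sets), Idh3g at HCN 2 h (0.26; 0.0258 for the mean) and Sdha at HCN 2 h (0.058). These are the reversals where the brightest or the other value was called for an enzyme, or the brightest for another gene. Values not called also differed in sign, such as Cs at KCN 24 h (0.11 for the brightest probe set, -0.15 for the second). The cause was not tested. Same-numbered arrays correlated at -0.142 to 0.318 and so were not paired; with a replicate block, Fh1 at HCN 2 h gave 0.14 (limma adjusted p = 0.0537) and was no longer called, the route difference of Dlst at 2 h gave -0.30 (adjusted p = 0.0469) and was called, and no other call on the enzymes changed. Probe sets of 1 gene differed in direction in some comparisons, and 3 or 4 arrays a group limit the precision of all changes.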
